A study of Mus musculus with 15 samples.

Results

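Markers of neural stem cells were followed through spatial transcript maps of mouse embryos. The list held 9 genes (Sox1, Sox2, Sox3, Sox21, Nes, Fabp7, Vim, Msi1 and Prom1), picked by gene symbol from the 30534 genes counted over all libraries. Frozen sections from 3 embryonic days (E10, E11 and E12, for days 10, 11 and 12) were barcoded through 2 crossed sets of microfluidic channels, so that each crossing is a pixel of 10, 25 or 50 µm width with its own transcript counts. The groups were E10 at 10 µm (2 libraries), E10 at 25 µm (1), E10 at 50 µm (3), E11 at 10 µm (2), E11 at 25 µm (2) and E12 at 50 µm (1). No treatment was named, and all groups were whole-embryo tissue of mouse, with no strain, sex or genotype in the labels. The embryo and body region behind each section are not in the labels, nor is it stated that libraries of a group came from separate embryos, so p-values measure the spread between these libraries, which may be technical. A pixel is a small region that can hold several cells or part of one, and not a cell. Pixel names are grid positions of the device, and 149 of 2500 occur in every library for that reason.

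The neural tube is built by neuroepithelial cells, the stem cells of the nervous system, which divide at the lumen and send newborn neurons outward. SOX1, SOX2 and SOX3 are the SoxB1 transcription factors, which hold these cells in the progenitor state, and SOX21 is a SoxB2 factor that opposes them. Nestin (Nes) and vimentin (Vim) are intermediate filament proteins, FABP7 binds fatty acids in radial glia, MSI1 binds RNA, and PROM1 is a membrane protein of apical protrusions. Vimentin is also a general filament of mesenchyme and vessels, and nestin is also made in muscle precursors.

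The counts behind each library differed widely. Tissue pixels, whose count total was 0.1 or more of the library's 95th percentile, numbered 829 to 2271 per library and held 1563489 to 11998765 counts. All 9 genes passed the filter on low counts in every fit. Sox21 had no column in E11 10 µm replicate 2 and was taken as 0 there. That library stood apart: its 20 neuroepithelium markers (Pax6, Hes5 and others, no listed gene among them) summed to 76.6 CPM (counts per 1000000 counts of the same pixels), against 209 to 1799 CPM in the other 10. In GENCODE M21 (build GRCm38, used for positions since the build behind the counts is not given in the sources used here) Sox1 is at chr8:12395295-12400126, Sox2 at chr3:34650405-34652461, Sox3 at chrX:60891366-60893430 and Sox21 at chr14:118233232-118237030, each as a gene of 1 exon. Nes is at chr3:87971078-87980451, Fabp7 at chr10:57784881-57788450, Vim at chr2:13573927-13582826, Msi1 at chr5:115429599-115455698 and Prom1 at chr5:43993620-44102032. Sox2 lies inside the longer transcript Sox2ot on the same strand, to which 89 counts were given over all libraries. Sox21 overlaps Gm4675 on the other strand (6 counts), and Prom1 overlaps Gm42716 (11 counts) and Gm16401 (4 counts). Use of strand is not given in the sources used here, so reads from such partners cannot be told apart.

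The SoxB1 factors were at their highest in the E10 sections. Sox2 was at 113 and 206 CPM in E10 10 µm, 190 in E10 25 µm, and 242, 183 and 221 in E10 50 µm, then at 97.6 and 6.93 in E11 10 µm, 110 and 199 in E11 25 µm, and 32.6 in E12 50 µm. Sox1 was at 33.9 and 45.1 CPM in E10 10 µm, 48.6 in E10 25 µm, 45.7, 34.2 and 50.8 in E10 50 µm, 19.8 and 1.09 in E11 10 µm, 4.74 and 10.5 in E11 25 µm, and 2.31 in E12. For Sox1 the E10 and later libraries did not overlap, but how many of all genes show such a gap was not counted. For Sox2, E11 25 µm replicate 2 lay within the E10 range and replicate 1 (110 CPM) just below its lowest library (113 CPM). Sox3 was at 20.9 and 43.8 CPM in E10 10 µm, 45.4 in E10 25 µm, 40.3, 21.3 and 52.8 in E10 50 µm, 24.5 and 0.365 in E11 10 µm, 21.1 and 18.4 in E11 25 µm, and 2.31 in E12. Sox21 was at 12.4 and 30.4 CPM in E10 10 µm, 26.2 in E10 25 µm, 40.7, 19.2 and 44.8 in E10 50 µm, 14.0 and 0 in E11 10 µm, 10.3 and 28.8 in E11 25 µm, and 5.85 in E12. Both genes overlapped between E10 and E11 and were below every E10 library at E12. The 2 libraries of E11 10 µm were far apart for all 4 Sox genes.

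The filament genes and Fabp7, Msi1 and Prom1 follow. Vim was at 1982 and 2539 CPM in E10 10 µm, 1618 in E10 25 µm, 2137, 1893 and 2296 in E10 50 µm, 1178 and 899 in E11 10 µm, 1398 and 1867 in E11 25 µm, and 992 in E12. Nes was at 307 and 383 CPM in E10 10 µm, 423 in E10 25 µm, 795, 789 and 991 in E10 50 µm, 374 and 102 in E11 10 µm, 388 and 358 in E11 25 µm, and 255 in E12. Nes thus set the 3 E10 50 µm libraries above all others, while the E12 library, also of 50 µm, lay below every E10 library. Fabp7 was at 58.0 and 286 CPM in E10 10 µm, 217 in E10 25 µm, 396, 147 and 326 in E10 50 µm, 79.7 and 5.11 in E11 10 µm, 71.5 and 172 in E11 25 µm, and 67.8 in E12. Msi1 ranged from 84.8 to 182 CPM over the E10 libraries, from 24.4 to 116 at E11, and was at 24.5 in E12. Prom1 ranged from 79.7 to 144 CPM at E10, from 32.5 to 98.4 at E11, and was at 44.3 in E12. Fabp7, Msi1 and Prom1 overlapped between E10 and E11.

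**Figure D1:**
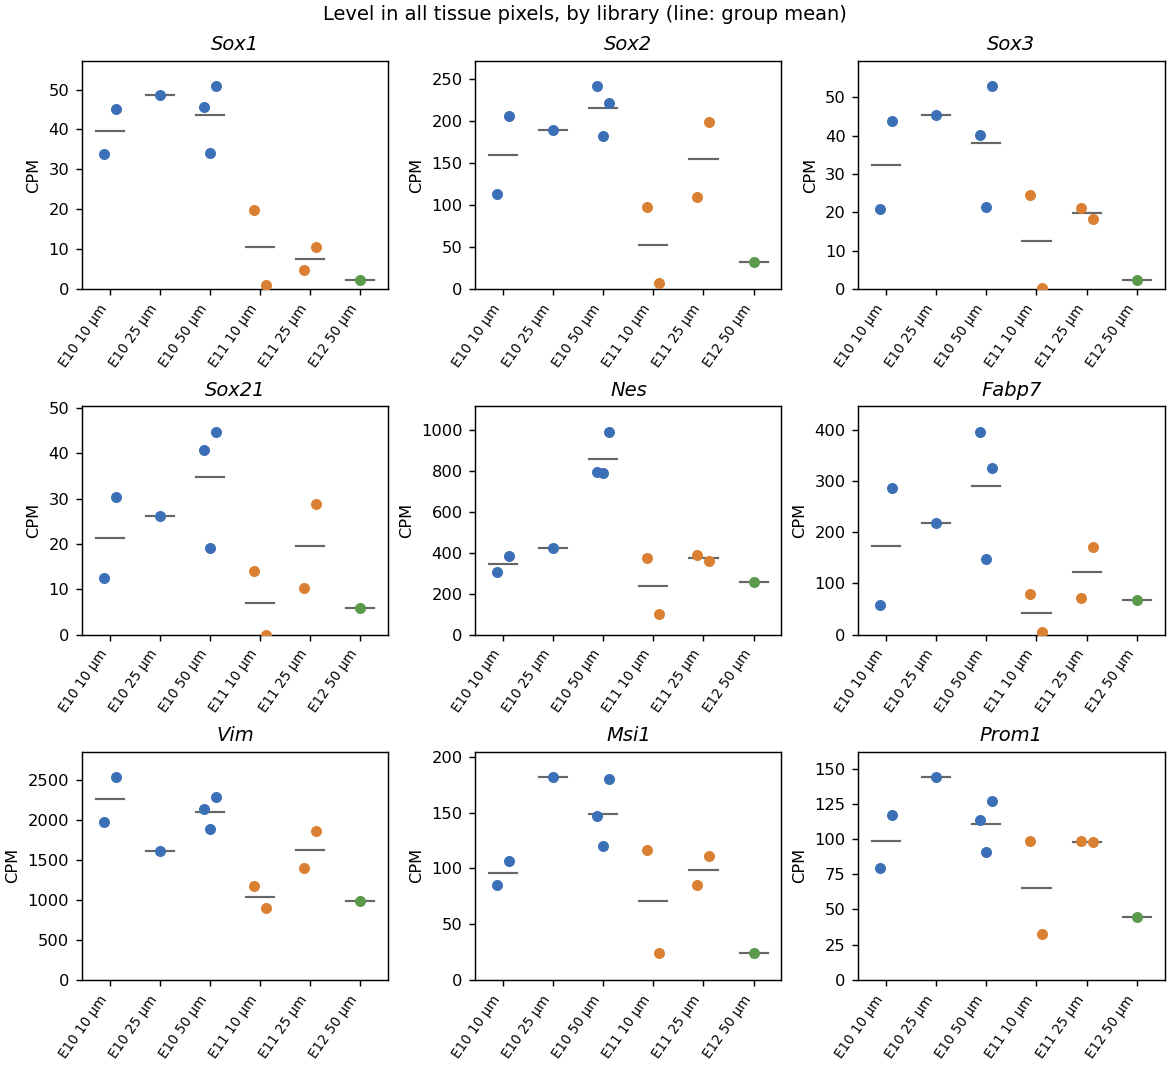
Level of each gene in all tissue pixels, in CPM (linear axis from 0), with 1 point per library, a line at each group mean, and colours for E10 (blue), E11 (orange) and E12 (green). Sox1 is at 33.9 to 50.8 CPM in the E10 libraries and at 1.09 to 19.8 CPM in the later ones. Sox21 in E11 10 µm replicate 2 is drawn at 0 because it had no column there.

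None of these stage differences passed the test, although all 9 genes had lower fitted levels later. Counts summed over tissue pixels were fitted with edgeR's quasi-likelihood test for all genes, with Benjamini-Hochberg adjustment over 18233 genes and 0.05 as the threshold. For E11 against E10 (mean of the changes at 10 and 25 µm), 0 of 9 genes were called, and 1 had an unadjusted p under 0.05, where 3.6% of all genes tested were called and 23.1% had such an unadjusted p. The log2 changes ran from -2.2 (Sox1, SE 0.61, adjusted p = 0.0796) to -0.27 (Nes, adjusted p = 0.677), with a median of -0.88 against 0.05 over all genes. At 10 µm alone, 0 of 9 were called (3.33% of all genes) and 2 had an unadjusted p under 0.05 (20.2%), with log2 changes from -2.08 for Fabp7 (adjusted p = 0.409) to -0.49 for Msi1 (adjusted p = 0.621), and Vim at -1.15 (adjusted p = 0.0665). For E12 against E10 at 50 µm, 0 of 9 were called (2.14% of all genes) with 6 under an unadjusted p of 0.05 (14.4%). The log2 change was -4.26 for Sox1 (adjusted p = 0.115), -4.06 for Sox3 (0.297), -2.76 for Sox2 (0.359), -2.64 for Msi1 (0.0886) and -1.13 for Vim (0.175). Between pixel widths, 0 of 9 were called at E10 (10 against 50 µm, 0.11% of all genes, with Nes at -1.29 and an adjusted p of 0.249) and 0 of 9 at E11 (10 against 25 µm, 2.07%). An unadjusted p under 0.05 was reached by 1 of 9 in each (10.8 and 11.5% of all genes). DESeq2 called 1 of 9 for E11 against E10 (8.19% of all genes it tested), 4 of 9 for E12 against E10 (2.97%), and 1 of 9 at 10 µm (5.41%).

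The calls changed when either E11 10 µm library was left out. Without replicate 2 of that group, Sox1 passed for E11 against E10 (log2 -1.74, adjusted p = 0.0185, with 1.86% of all genes called), Nes turned to 0.05, and Sox1, Sox2, Sox3, Nes and Msi1 passed for E12 against E10 (Sox1 -4.26, adjusted p = 0.000841, with 5.27% called). Without replicate 1, 6 of 9 passed for E11 against E10 (8.08% of all genes called), 8 of 9 at 10 µm (6.93%) and 5 of 9 at E12 (5.34%). The sections also differed in tissue: the neuroepithelium markers summed to 674 to 1799 CPM at E10, 76.6 to 833 at E11 and 209 at E12, and 8 liver markers to 8.25 to 137 CPM at E10, 59.9 to 3800 at E11 and 3614 at E12. Their part in these levels was not tested, and in such sums fewer cells of a type and less RNA per cell cannot be told apart. Of 20 other progenitor genes (Notch, Hes and Gli family members and others), 0 passed for E11 against E10 and for E12, and 1 passed at 10 µm: Sox9, a SoxE factor, was lower at E11 (log2 -1.81, adjusted p = 0.0297).

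How far each gene was limited to neural tissue was measured inside each section. Neural pixels were the highest 25% of tissue pixels, and non-neural pixels the lowest 50%, by the summed share of 20 neuron genes (Tubb3, Stmn2 and others) and 20 neuroepithelium genes in a 3 × 3 square. Neural pixels held 19.5 to 35.6% of all counts. They held 13.1 to 75.5% of Sox2 counts (median 34.6%), a median of 48.8% of Fabp7, 40.6% of Sox21, 39.3% of Nes, 37.5% of Sox3, 33.6% of Sox1, 32.8% of Msi1, 32.5% of Vim and 30.2% of Prom1. The CPM of Sox2 in neural pixels was 1.82 times that in non-neural pixels as the median library, with a range from 0.532 to 18.2. The same median ratio was 3.15 for Sox21, 2.92 for Fabp7, 1.97 for Nes, 1.95 for Sox3, 1.59 for Sox1, 1.46 for Msi1, 1.36 for Vim and 1.17 for Prom1. Nes was above 1 in 11 of 11 libraries, from 1.36 to 4.59. Sox1 ran from 0.753 to 21 and Sox3 from 0.751 to 19.2, over the 10 libraries with enough counts (at least 10 over all tissue pixels).

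**Figure D2:**
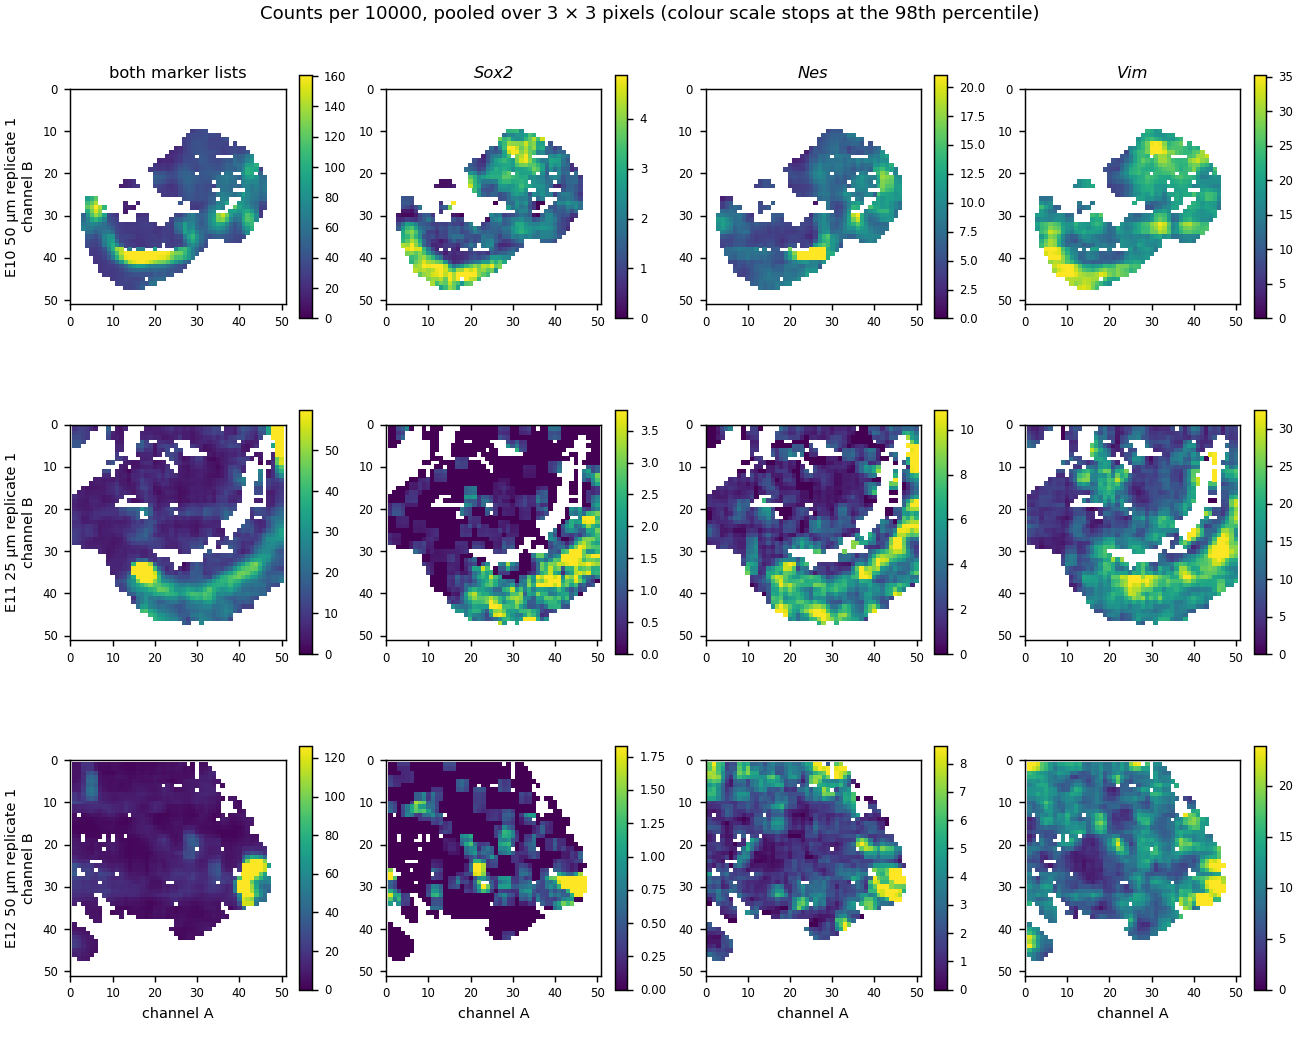
Maps of 3 sections (rows) over the 2 sets of device channels (axes), coloured by counts per 10000 in a 3 × 3 square of pixels, for both neural marker lists, Sox2, Nes and Vim, with white where a pixel was not tissue. In E10 50 µm replicate 1 the brightest marker band lies beside, and not on, the Sox2 band, while in E11 25 µm replicate 1 and E12 the brightest Sox2 pixels fall in or next to the marker-rich area.

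Tested over the 11 libraries with the library as a block, 2 of 9 genes were higher in neural than in non-neural pixels, where 19.5% of 12150 genes tested were called and 9.43% were called higher. These were Nes (log2 1.08, SE 0.17, adjusted p = 0.00111) and Fabp7 (1.47, SE 0.34, adjusted p = 0.0122). Sox21 (1.31, adjusted p = 0.0656), Sox2 (1.18, 0.13), Sox3 (0.99, 0.113), Sox1 (0.69, 0.235), Msi1 (0.66, 0.0617), Vim (0.53, 0.111) and Prom1 (0.19, 0.39) did not pass. The median over the 9 was 0.99 against -0.03 over all genes tested. DESeq2 called 7 of 9 (20% of all genes), and edgeR without the filter on low counts called 8 (11.6% of 28962 genes). Of 19 other progenitor genes tested, 4 were higher: Ednrb, the endothelin receptor of neural crest (0.91), Cdh2, N-cadherin (0.60), the RNA-binding Msi2 (0.40) and the surface protein gene Cd24a (0.28).

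The summed score leaned on neurons in the E10 50 µm sections. There, only 5.81, 0 and 20.2% of the pixels in the highest 10% for neuroepithelium genes fell among the neural pixels, against 59.6 to 100% in the other 8 libraries. The pixels were therefore also ranked by each list alone.

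Ranked by neuroepithelium genes alone, 8 of 9 genes were higher in the highest 25% of pixels than in the lowest 50%, where 18.4% of 12278 genes were called and 7.54% called higher. Sox21 gave a log2 change of 1.96 (adjusted p = 0.00523), Sox2 1.74 (0.00772), Sox1 1.45 (0.00315), Sox3 1.37 (0.00815), Fabp7 1.34 (0.0111), Msi1 0.95 (0.00545), Prom1 0.64 (0.00162) and Vim 0.63 (0.0275), all by edgeR with Benjamini-Hochberg adjustment. Nes did not pass (0.70, adjusted p = 0.0767). By library, Sox2 was 1.64 and 2.16 times as high in E10 10 µm, 2.48 in E10 25 µm, 2.24, 3.93 and 1.69 in E10 50 µm, 4.91 and 0.520 in E11 10 µm, 10.6 and 17.7 in E11 25 µm, and 4.29 in E12. Sox1 was 1.46 and 1.98 times as high in E10 10 µm, 3.04 in E10 25 µm, 2.02, 3.43 and 1.87 in E10 50 µm, 7.18 in E11 10 µm replicate 1, 7.21 and 23.1 in E11 25 µm, and 2.76 in E12. Vim stayed between 1.05 and 1.56 times in the 6 E10 libraries, and was at 3.24 and 0.823 in E11 10 µm, 2.41 and 2.61 in E11 25 µm and 1.62 in E12. Nes was between 0.959 and 1.82 times in the 6 E10 libraries, and at 3.65 and 0.725 in E11 10 µm, 3.74 and 3.47 in E11 25 µm and 2.25 in E12. Enough counts here meant at least 10 in the highest 25% and lowest 50% of pixels together. So the SoxB1 genes were above 1 in every library with enough counts, but for Sox2 in E11 10 µm replicate 2, and all their ratios above 5 came from E11.

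Ranked by neuron genes alone, the order turned. By edgeR with Benjamini-Hochberg adjustment, 2 of 9 genes were higher (Nes, 0.93, adjusted p = 0.000334, and Fabp7, 1.16, adjusted p = 0.0173), where 22.9% of 12094 genes were called and 11.3% called higher. Sox1 did not differ beyond its spread (log2 0.00435, SE 0.19, adjusted p = 0.995), nor did Prom1 (0.04, 0.848), Sox3 (0.28, 0.302) or Sox2 (0.41, 0.411). Nes was at 1.67 and 1.73 times in E10 10 µm, 1.91 in E10 25 µm, 1.94, 2.19 and 1.39 in E10 50 µm, 4.2 and 1.35 in E11 10 µm, 2.06 and 2.34 in E11 25 µm, and 1.64 in E12, above 1 in 11 of 11 libraries. Sox2 was below 1 in the 3 E10 50 µm libraries (0.502, 0.866 and 0.775), near 1 in the other E10 libraries (1.03 to 1.11), between 2.19 and 2.88 at E11 and at 9.18 in E12.

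**Figure D3:**
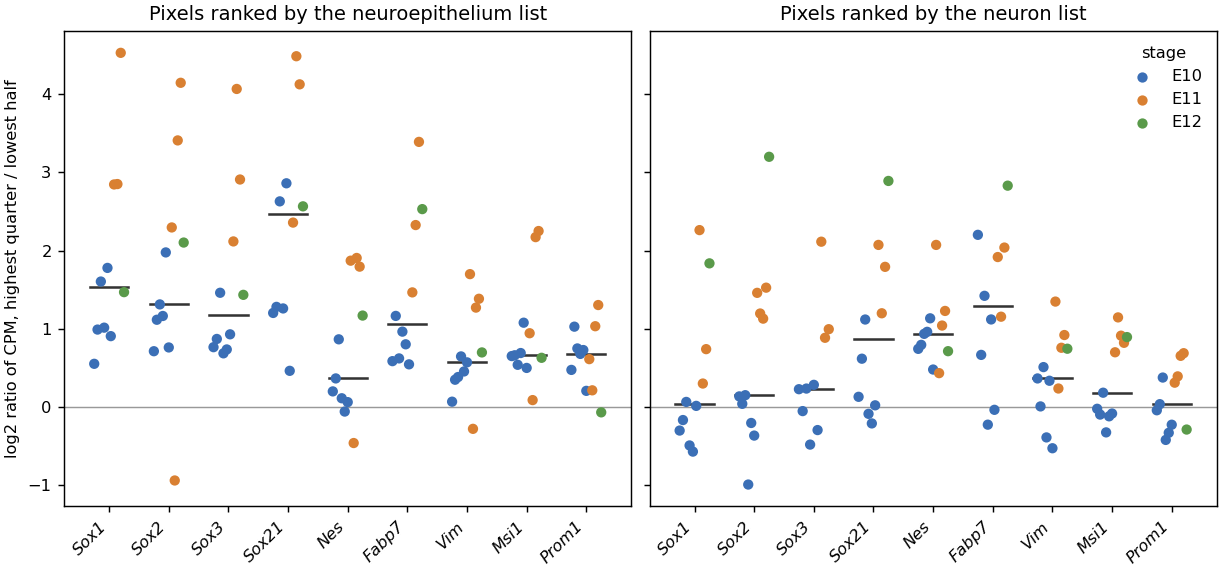
Log2 ratio of CPM in the highest 25% over the lowest 50% of tissue pixels, ranked by the neuroepithelium list (left) or the neuron list (right), with 1 point per library, coloured by stage, and a line at the median. Nes sits at a median fold of 1.29 on the left and 1.91 on the right, whereas Sox1 sits at 2.90 on the left and 1.03 on the right.

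The SoxB1 genes were set against the filament genes within each library. A library was used where both genes of a pair had at least 10 counts in neural and non-neural pixels together. The measure was the log2 ratio of a SoxB1 gene minus that of Vim or Nes, tested by a two-sided exact permutation of signs over libraries, with 6 pairs and Benjamini-Hochberg adjustment over the 6. By both lists together, no pair passed over all libraries: Sox2 exceeded Vim by 0.79 ± 1.06 (SD, n = 11, higher in 9, exact p = 0.0195, adjusted 0.082), Sox3 by 0.74 ± 1.00 (SD, n = 9, higher in 7, exact p = 0.0273, adjusted 0.082) and Sox1 by 0.69 ± 1.05 (SD, n = 10, higher in 7, exact p = 0.0566, adjusted 0.113). Against Nes the 3 mean differences were 0.11 to 0.26 (exact adjusted p = 0.801 for each). Some alternatives crossed the threshold. All 3 pairs against Vim passed with both lists weighted equally (exact adjusted p = 0.0352 to 0.0371) and without E10 50 µm replicate 2 (0.0469), and Sox2 against Vim passed without E10 50 µm replicate 1 (0.0234). Sox2 and Sox3 against Vim also passed with each pixel ranked by its own counts, without the 3 × 3 square (0.0381). They passed as well with 1 score threshold for all libraries (0.0469). Within the 6 E10 libraries Sox1 was below Nes in 6 of 6 (mean -0.70, exact p = 0.0312, the smallest that 6 libraries allow, unadjusted), while the 3 used at E11 had it above. By the neuroepithelium list all 6 pairs passed. Sox1 exceeded Vim by 1.10 ± 0.84 (SD, n = 10, higher in 10, exact p = 0.00195, adjusted 0.00293) and Nes by 1.03 ± 0.74 (SD, n = 10, higher in 10, same exact p). Sox2 exceeded Vim by 0.98 ± 0.94 (SD, n = 11, higher in 10, exact adjusted p = 0.00586) and Nes by 0.93 ± 0.80 (SD, n = 11, higher in 10, exact adjusted p = 0.00469). Sox3 exceeded Vim by 0.85 ± 0.81 and Nes by 0.77 ± 0.56 (SD, n = 10 each, higher in 10, exact adjusted p = 0.00293 for each). Within the 6 E10 libraries alone, each of the 6 pairs was higher in 6 of 6 (exact p = 0.0312, the smallest that 6 libraries allow). By the neuron list Sox3 was below Nes by a mean of -0.61 ± 0.45 (SD, n = 9, higher in 1, exact adjusted p = 0.0469). The other pairs ran from -0.64 for Sox1 against Nes (exact adjusted p = 0.117) to 0.27 for Sox2 against Vim (exact adjusted p = 0.645).

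**Figure D4:**
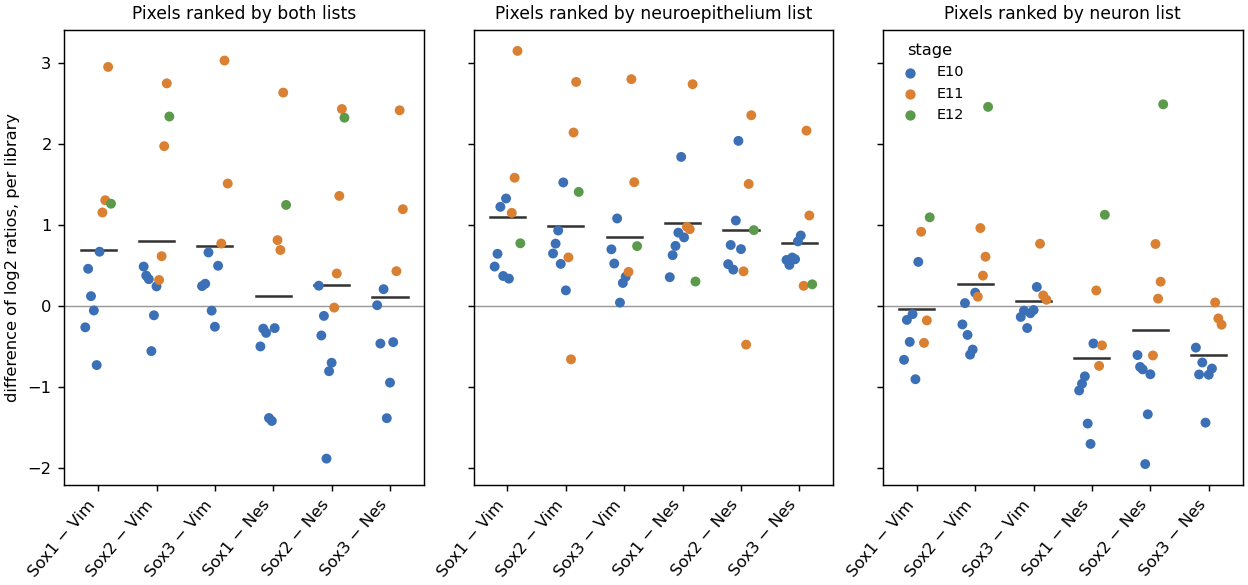
Difference between the log2 ratio of a SoxB1 gene and that of Vim or Nes in each library, for pixels ranked by both lists, the neuroepithelium list and the neuron list, coloured by stage, with a line at the mean. With the neuroepithelium list every point but those of Sox2 in E11 10 µm replicate 2 is above 0 (means 0.77 to 1.10), and with the neuron list the 3 pairs against Nes have means from -0.64 to -0.30.

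A direct comparison of both kinds of pixel, added after these results were seen, set pixels in the highest 25% for neuroepithelium but not neuron genes against pixels in the highest 25% for neuron but not neuroepithelium genes (168 to 440 pixels of each kind per library). All 4 Sox genes, Msi1 and Prom1 were higher in the former, 6 of 9, by edgeR with Benjamini-Hochberg adjustment, where 20% of 10066 genes were called and 9.45% called higher. Sox2 differed by 1.12 on the log2 scale (SE 0.29, adjusted p = 0.0232), Sox1 by 1.08 (SE 0.16, adjusted p = 4.38e-05), Sox3 by 0.90 (adjusted p = 0.000667), Sox21 by 0.90 (0.0385), Msi1 by 0.66 (0.0349) and Prom1 by 0.58 (5.62e-05). Vim (0.26, 0.191), Fabp7 (0.08, 0.896) and Nes (-0.20, 0.399) did not pass. DESeq2 called 5 of 9 (19.6% of all genes) and left out Sox2 (0.90, adjusted p = 0.0607). Sox2 was at 155 against 112 CPM and 289 against 148 in E10 10 µm, 324 against 188 in E10 25 µm, 338 against 129, 299 against 145 and 306 against 175 in E10 50 µm, 166 against 121 in E11 10 µm replicate 1, 240 against 37.2 and 449 against 53.7 in E11 25 µm, and the other way in E11 10 µm replicate 2 (0 against 12.7) and E12 (23.2 against 34.1). Nes was at 276 against 389 CPM and 425 against 530 in E10 10 µm, 486 against 522 in E10 25 µm, 797 against 1151, 731 against 1274 and 932 against 1200 in E10 50 µm, and 404 against 533 and 80.4 against 129 in E11 10 µm. It was at 634 against 399 and 514 against 433 in E11 25 µm and 321 against 200.2 in E12, so that it was lower in the neuroepithelium pixels of 8 libraries and higher in 3. Without E10 50 µm replicate 1, 3 of 9 genes passed (13.5% of all genes), and without replicate 2 also 3 (14.5%). Of 19 other progenitor genes tested, 9 were higher and 1 lower. The higher ones included Nr2e1, an orphan nuclear receptor of forebrain progenitors (1.94), Lrp2, an apical endocytic receptor (1.45), the Hedgehog effector Gli3 (1.04), Sox6 (0.91), the receptor Notch1 (0.81), its target Hes1 (0.77) and Sox9 (0.42), and the lower one was Cd24a (-0.54).

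The bases upstream of the genes that separated these pixels and of those that did not are shown for Sox2 and Sox21 against Nes and Fabp7. They are RefSeq sequences of build GRCm38.p6, 5′ to 3′ on the gene's strand, taken from the 250 bases before the RefSeq start, and ended at the GENCODE M21 gene where that begins earlier. The Sox2 stretch ends at the RefSeq start, which lies before the GENCODE start given above. The stretches are Sox2 chr3:34649745-34649994 (+ strand), Sox21 chr14:118237031-118237280 (- strand), Nes chr3:87970843-87971077 (+ strand) and Fabp7 chr10:57784673-57784880 (+ strand). The letters searched for on either strand, and set in capitals, were ACAAT (the core bound by SOX proteins), TATAAA (the TATA box), the CCAAT box of promoters, and GGGCGG (the GC box). No matches share letters in these sequences.
Sox2: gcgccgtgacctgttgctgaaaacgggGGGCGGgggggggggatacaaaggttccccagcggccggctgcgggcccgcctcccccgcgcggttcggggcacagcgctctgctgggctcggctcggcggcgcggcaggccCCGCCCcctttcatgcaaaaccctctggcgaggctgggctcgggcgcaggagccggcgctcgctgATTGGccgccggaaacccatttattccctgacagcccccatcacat
Sox21: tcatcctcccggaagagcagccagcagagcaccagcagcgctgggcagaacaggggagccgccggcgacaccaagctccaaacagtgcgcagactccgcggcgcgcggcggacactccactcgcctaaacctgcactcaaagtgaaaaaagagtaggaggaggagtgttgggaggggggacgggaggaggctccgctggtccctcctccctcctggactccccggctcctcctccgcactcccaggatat
Nes: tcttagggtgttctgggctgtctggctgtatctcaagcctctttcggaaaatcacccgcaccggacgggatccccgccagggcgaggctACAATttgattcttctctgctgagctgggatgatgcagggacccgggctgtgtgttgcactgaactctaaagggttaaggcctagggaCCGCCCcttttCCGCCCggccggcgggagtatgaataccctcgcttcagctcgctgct
Fabp7: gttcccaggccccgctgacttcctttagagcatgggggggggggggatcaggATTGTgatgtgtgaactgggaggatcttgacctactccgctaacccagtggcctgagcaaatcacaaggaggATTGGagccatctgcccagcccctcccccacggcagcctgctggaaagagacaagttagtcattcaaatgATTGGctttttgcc
Sox2 held 2 matches to GGGCGG and 1 to CCAAT, Nes held 2 to GGGCGG and 1 to ACAAT, Fabp7 held 2 to CCAAT and 1 to ACAAT, and Sox21 held none of the 4. Of 32851 promoter windows of 250 bases, 27.7% held ACAAT, 12.4% TATAAA, 33.8% CCAAT and 32.7% GGGCGG. Over the whole window of 250 bases Sox2 held 27 CG dinucleotides, Sox21 17, Nes 15 and Fabp7 4, where the median window held 6. An entry was found for 7 of the 9 genes.

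The limit to neural pixels differed between stages. By both lists, all 9 genes were higher in neural than non-neural pixels at E11, where 13.3% of 12150 genes were called and 6.58% called higher by edgeR with Benjamini-Hochberg adjustment, and 1 of 9, Nes (log2 0.84, adjusted p = 0.0117), at E10 (9.01% called, 5.78% higher). By the neuroepithelium list alone it was 9 of 9 at E11 (14.6% of all genes called) and 7 of 9 at E10 (12.1%), all but Nes (0.23, adjusted p = 0.604) and Vim (0.41, adjusted p = 0.282). By both lists together, the log2 changes at E11 were 3.78 for Sox21, 3.28 for Sox1, 3.17 for Sox2, 3.16 for Sox3, 2.51 for Fabp7, 1.64 for Msi1, 1.61 for Nes, 1.16 for Vim and 0.71 for Prom1, with adjusted p from 1.2e-05 to 0.0247. By both lists at E10 the same genes gave 0.50, 0.09, 0.20, 0.25, 0.87, 0.16, 0.84, 0.11 and 0.00154. The difference between the stages itself passed for 5 of 9 genes, where 1.35% of all genes were called and 1.01% called higher: Sox21 (3.28, adjusted p = 0.00173), Sox1 (3.19, 0.00173), Sox2 (2.98, 0.0437), Sox3 (2.91, 0.00173) and Msi1 (1.48, 0.0022). Nes (0.77, 0.261), Vim (1.05, 0.236), Fabp7 (1.64, 0.271) and Prom1 (0.71, 0.121) did not pass. Sox2 was at 75.8 CPM in neural and 8.70 in non-neural pixels in E12, and 0 of 9 passed for E12 against E10, where edgeR called 0 of all genes (0.0%) and 435 (3.58%), 2 of the 9 among them, had an unadjusted p under 0.05. Within E12 alone, 1 library against its own non-neural pixels, 0 of 9 passed (1.35% of all genes called), with Sox21 at 3.01 and Sox2 at 2.99.

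The levels behind this difference are given for Sox2 and Sox1. Sox2 in neural pixels was at 155 and 241 CPM in E10 10 µm, 220 in E10 25 µm, 143, 181 and 193 in E10 50 µm, 182 and 9.37 in E11 10 µm, and 222 and 423 in E11 25 µm. In non-neural pixels it was at 85.3 and 165 CPM in E10 10 µm, 116 in E10 25 µm, 270, 145 and 222 in E10 50 µm, but at 39.96 and 5.41 in E11 10 µm, 23.9 and 23.1 in E11 25 µm. The neuroepithelium markers themselves summed to 453 to 1651 CPM in the non-neural pixels at E10, and to 48.0 to 256 CPM at E11. The non-neural class of E10 thus still held neuroepithelium transcripts. In E11 10 µm replicate 2 even the neural pixels were at 139 CPM for these markers. The part of this in the Sox levels was not tested. For Sox2 the E11 libraries overlapped the E10 libraries in neural pixels and lay below all of them in non-neural pixels, a gap not counted over all genes. Sox1 showed the same in non-neural pixels, at 30.6 to 48.9 CPM over the 6 E10 libraries and 0.876 to 5.45 over the 4 at E11 (2 to 6 counts each), but in neural pixels it was at 24.9 to 54.9 CPM at E10 and at 47.0 and 1.87 in E11 10 µm and 8.40 and 21.2 in E11 25 µm. Within neural pixels alone, 0 of 9 genes were called for E11 against E10, where 1.94% of 14918 genes were called by edgeR and 0 of 9 had an unadjusted p under 0.05 (17.8% of all genes), with log2 changes from -1.15 (Sox1, adjusted p = 0.368) to 0.13 (Nes, adjusted p = 0.915). For E12 against E10 in neural pixels 0 of 9 were called (0.757% of all genes) and 4 had an unadjusted p under 0.05 (10.1%), with Sox3 at -3.24 (adjusted p = 0.531) and Msi1 at -2.03 (adjusted p = 0.14). At 10 µm alone 0 of 9 were called (1.62%) and 0 had an unadjusted p under 0.05 (15.2%). Between 10 and 50 µm at E10 these counts were 0 (1.24%) and 1 (13.5%), and between 10 and 25 µm at E11 0 (1.81%) and 3 (14.5%).

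This stage difference depended on which pixels stood for neural tissue and on pixel width. It passed for 2 of 9 genes by the neuroepithelium list (Sox1, 2.37, adjusted p = 0.00755, and Sox3, 2.17, adjusted p = 0.002, where 1.78% of genes were called), for 0 with 1 score threshold for all libraries, and for 2 (Sox1 and Sox3) in the 10 and 25 µm libraries only. It passed for 3 of 9 without E11 25 µm replicate 2 (0.115% of all genes) and for 8 without E11 10 µm replicate 2 (4.5%). The counts with 1 score threshold and in the 10 and 25 µm libraries are given without such a share, and show only that the count moved.

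In other tissues Vim parted from the SoxB1 genes in several classes, and was above its tissue level at the median in mesenchyme and vessels. For each of 11 marker lists the level in the highest 10% of pixels was divided by the level in all tissue pixels, in libraries where the list had at least 1000 counts. These folds are a description with no test. In pixels rich in fibrillar collagen genes (mesenchyme list, 11 libraries), Vim was at a median of 1.17 times its tissue level (0.747 to 1.46) and Nes at 0.756, while Sox2 was at 0.386 (0.152 to 0.899), below 1 in 11 of 11, and Sox1 at 0.426. In vessel-rich pixels (8 libraries) Vim was at 1.10 and Sox2 at 0.518, below 1 in 8 of 8. In heart muscle pixels (9 libraries) Vim was at 0.906, Nes at 0.571 and Sox2 at 0.247, with Sox1 at 0.224 and Sox3 at 0.548 (8 libraries each). In red cell pixels (11 libraries) Vim was at 0.902 and Sox2 at 0.392. In pixels ranked by the liver list (6 libraries) the order did not part Vim from the SoxB1 genes. Vim was at 0.617, Nes at 0.493 and Sox2 at 0.605, with Sox1 at 0.731 and Sox3 at 0.426 (5 libraries each). These libraries include E10 50 µm replicates 1 and 3, where the liver genes Fgb, Serpina1b and Ahsg had no counts. There 30.2 and 29.8% of these pixels were also neural pixels, against 1.32 to 13.0% at E11 and E12. The E10 pixels are thus not shown to be liver, and the medians include them. Nes was at 1.61 in pixels rich in skeletal muscle genes, at 1.03 and 2.19 in the 2 libraries with enough counts, where Sox1 was at 0 and 0.889. Sox2, which is also made in gut and placodal epithelium, was at 1.01 in epithelium-rich pixels (0.494 to 1.35, 3 libraries). In neuroepithelium-rich pixels (10 libraries) Sox21 was at 2.28, Sox3 at 2.06, Sox2 at 1.91, Sox1 at 1.69 and Vim at 1.39. In neuron-rich pixels Nes was at 1.79 (above 1 in 10 of 10) and Sox1 at 0.756 (above 1 in 2 of 10). Sox3 was at 0.829 there, Sox21 at 0.894 and Sox2 at 0.925.

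**Figure D5:**
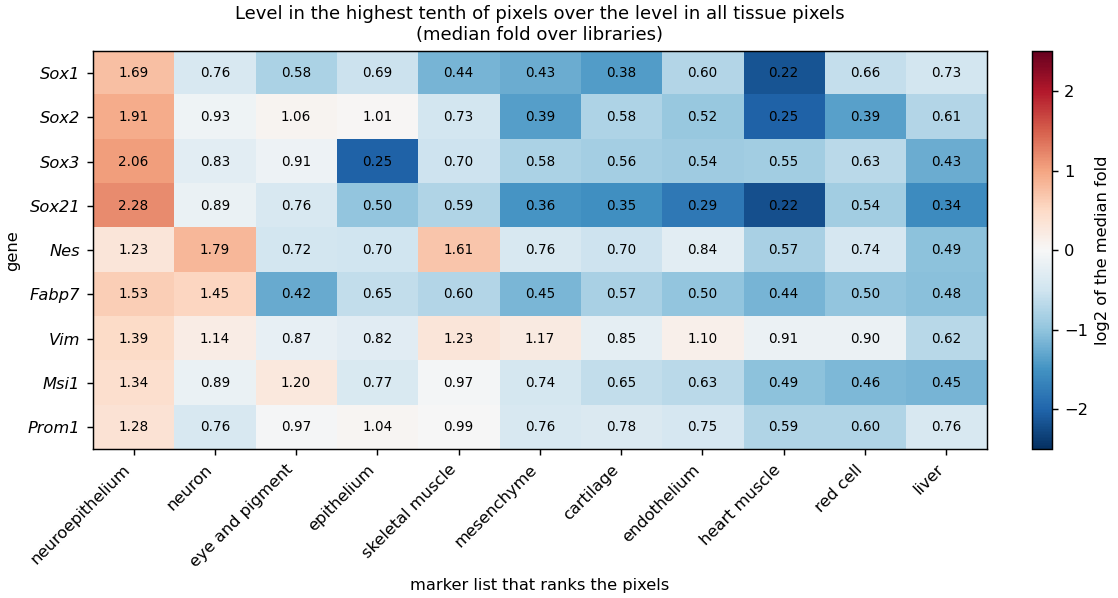
Median fold, over libraries, of each gene (rows) in the highest 10% of pixels for each marker list (columns) over its level in all tissue pixels, with the colour on a log2 scale and the fold printed in each cell. The 4 Sox genes, Nes, Fabp7, Msi1 and Prom1 are below 1 in mesenchyme, cartilage, endothelium, heart muscle, red cell and liver pixels, while Vim is at 1.17 in mesenchyme and 1.10 in endothelium. The 4 Sox genes are also below 1 in neuron (0.756 to 0.925) and skeletal muscle pixels.

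The genes most like each member over the sections were sought across blocks of 5 × 5 pixels (37 to 100 per library) by Pearson's r of log2(CPM + 20), among 2918 genes with enough counts, averaged over libraries. Blocks of a library share its depth and section, and the values carry no test. Ckb, brain creatine kinase, was nearest to Sox2 (mean r = 0.489, from 0.136 to 0.866 over 11 libraries), Sox3 (0.413), Fabp7 (0.492) and Vim (0.454). Syt11, a synaptotagmin, was nearest to Sox1 (0.364), Sox21 (0.435) and Msi1 (0.448), and H2afy, a histone variant gene, to Prom1 (0.318). Nes was nearest to Map1b (0.605), Tubb2b (0.560) and Tuba1a (0.552), which code for a neuronal microtubule-associated protein and tubulins. The patchiness of each gene, given as Moran's I between neighbouring pixels (near 0 for a scattered gene), was highest for Sox2 in E11 25 µm replicate 2 (0.621), for Vim in E10 50 µm replicate 3 (0.4998) and for Fabp7 in E11 25 µm replicate 2 (0.441). In E11 10 µm replicate 2 it was between -0.014 and 0.022 for 7 genes with Vim at 0.087, and Sox21 had no counts there. Those 7 genes had counts in only 0.0518 to 12.0% of that library's tissue pixels, against 99.9% for Vim in E10 50 µm replicate 3. Moran's I was not adjusted for depth or pixel width, so a value near 0 can also reflect few counts.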

How the data were processed

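Transcripts were measured in 11 libraries, and 4 antibody libraries were not used here. The deposited counts are whole numbers per gene and pixel with no normalization, per the file headers and values. Paired reads of 100 bases came from a Nextera XT library, per the labels' protocols. CASAVA 1.8.2 and GRCh38 are named in the submitters' processing notes with no role, although the samples are mouse. The aligner, annotation, use of strand and removal of duplicate molecules are not given in the sources used here.

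Of 16 columns named by Ensembl ID, 15 were matched to a symbol in GENCODE M21. Counts were summed per library over tissue, neural and non-neural pixels, so that pixels were never replicates, and CPM divide a count by the summed count of the same pixels, per 1000000. Library totals were 1566377 to 12272836 counts. Sums were tested with edgeR 4.0.16 (quasi-likelihood, TMM, filterByExpr, robust; limma 3.58.1, R 4.3.3) with 6 group means, or with the library as a block, and a group of 1 library was assumed to vary like the others. Genes of the 2 lists that rank the pixels were left out of the adjustment. Gene pairs used 0.5 added counts and exact permutation (Python 3.11.15, numpy 2.4.6). In counts simulated for E11 against E10 at 10 µm (18233 genes), 93 of 200 genes changed 4-fold were recovered, and in counts simulated for neural against non-neural pixels (12189 genes), 199 of 200 changed 2-fold. Each simulation gave all genes 1 common spread (31.8 and 16.3% variation) and the same change in each library concerned. The log2 ratios of the 4 Sox genes had an SD of 1.54 to 1.61 over libraries. The recovered shares therefore do not carry over to genes that vary as these do.

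Alternatives were DESeq2 1.42.0, other size factors, no filter on low counts, a stricter tissue limit, other rankings and shares of pixels, 2 added counts, a replicate block at E11 and leaving out each library. The 9 genes are always named. The 3 genes most like each, and up to 8 other progenitor genes past the threshold by size of change, are named by rule. The genes, lists and tests were chosen with earlier results of these data known.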

Additional observations from a re-analysis of the deposited data

Results flagged for a closer look

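For 5 genes the log2 ratio of neural over non-neural pixels differed between E11 and E10 by a test of that difference (edgeR, interaction of stage and pixel class, adjusted p under 0.05). The difference was 3.28 for Sox21, 3.19 for Sox1, 2.98 for Sox2, 2.91 for Sox3 and 1.48 for Msi1, each larger at E11. The 3 E10 libraries of 50 µm, which have no E11 counterpart, gave Sox2 ratios of 0.532, 1.25 and 0.873, against 1.46 to 1.89 in the other 3 E10 libraries. The neuroepithelium markers in non-neural pixels also differed, at 453 to 1651 CPM at E10 and 48.0 to 256 CPM at E11. Stage and section cannot be told apart here, since the labels do not give the part of the embryo. In the 10 and 25 µm libraries only, a choice made after seeing the data, the differences were 2.71 for Sox21 (adjusted p = 0.0678), 2.83 for Sox1 (0.042), 2.40 for Sox2 (0.342), 2.47 for Sox3 (0.0457) and 1.23 for Msi1 (0.0984).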

How the results depend on the processing

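Few counts limit the precision of some values: in E11 10 µm replicate 2, Sox1 rested on 3 counts and Sox2 on 19 over all tissue pixels, although its total of 2784390 counts was above that of E11 10 µm replicate 1 (2614037). Where a value below changed direction or side of the threshold, the cause was not tested. Where a count of genes below stands without the share of all genes called in that setting, it shows only that the count moved.

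In all tissue pixels edgeR called 0 of 9 genes in each stage or width contrast. DESeq2 called 1 for E11 against E10, 1 at 10 µm and 4 for E12, and edgeR without the filter on low counts called 1, 2 and 4, and 1 for 10 against 50 µm at E10. Leaving out 1 library gave 0 to 6 for E11 against E10, 0 to 8 at 10 µm, 0 to 5 for E12 and 0 to 5 for 10 against 25 µm at E11, with Nes from -0.85 to 0.05 for E11 against E10.

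Within neural pixels the count of 0 became 1 (E11 against E10), 3 (E12) and 1 (10 against 50 µm) without the filter and 1 for E12 with DESeq2. Leaving out 1 library gave 0 to 4 for E11 against E10, 0 to 5 at 10 µm, 0 to 3 for E12, 0 to 1 for 10 against 50 µm and 0 to 7 for 10 against 25 µm. With the highest 10% of pixels, the E11 changes of Msi1 (0.17), Sox2 (0.12), Sox21 (0.57) and Sox3 (0.14) turned positive, as did Fabp7 for E12 (0.033). With 1 score threshold for all libraries, Msi1 (0.19), Sox2 (0.18), Sox21 (0.038) and Vim (0.053) did. Leaving out 1 library moved these E11 changes from -0.69 to 0.25 for Msi1, -0.76 to 0.51 for Nes, -0.97 to 0.058 for Prom1, -1.80 to 0.34 for Sox2, -4.15 to 0.19 for Sox21, -4.82 to 0.023 for Sox3 and -0.38 to 0.14 for Vim. Ranking each pixel by its own counts, without the 3 × 3 square, turned Nes to -0.010.

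The E11 replicate numbers were also fitted as a replicate block, which turned Nes in neural pixels to -0.017 for E11 against E10 and called 0 of 9 genes in each contrast. Over the 2 pairs the same-numbered libraries' deviations correlated at r = 0.204, so the numbers were not taken to pair them.

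For neural against non-neural pixels the count of 2 (19.5% of all genes called) became 7 with DESeq2, 8 without the filter and 8 by the neuroepithelium list (18.4%). It became 8 with 1 threshold and 4 with both lists weighted equally, both given without a share of all genes. Prom1 turned to -0.070 with the highest 10%. By the neuron list DESeq2 called 4, and leaving out 1 library moved Prom1 from -0.036 to 0.099 and Sox1 from -0.14 to 0.11. For neuroepithelium against neuron pixels it gave 3 to 6 genes, with Fabp7 from -0.11 to 0.25. The stage difference passed for 2 genes by the neuroepithelium list, 0 with 1 threshold, 2 in the 10 and 25 µm libraries (0 of these by the neuroepithelium list) and 3 to 8 when 1 library was left out. For E12 it passed for 1 gene by the neuron list.

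Pairs against Vim passed the threshold by the neuroepithelium list and, for those named in the report, with equal weights, own counts, 1 threshold or 1 library left out. Among the gene pairs (mean difference of log2 ratios), Sox1 minus Vim was -0.039 by the neuron list, 1.10 by the neuroepithelium list, 0.83 with lists weighted equally and 0.43 to 0.84 when 1 library was left out. Sox2 minus Vim was 0.98 by the neuroepithelium list, 0.68 with own counts, 1.21 with 1 threshold, 0.75 with lists weighted equally and 0.60 to 0.93 when 1 library was left out. Sox3 minus Vim was 0.85, 0.68, 0.92 and 0.79 in the same order, and 0.45 to 0.86. Sox1 minus Nes was -0.64 by the neuron list, 1.03 by the neuroepithelium list, -0.55 with the highest 10%, -0.099 against all other pixels, -0.0053 with 2 added counts and -0.16 to 0.29 when 1 library was left out. Sox2 minus Nes was -0.30, 0.93, -0.057 and -0.032 by the neuron list, the neuroepithelium list, the highest 10% and all other pixels, and Sox3 minus Nes -0.61, 0.77, -0.38 and -0.039, with -0.18 to 0.30 when 1 library was left out.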
